A study of Mus musculus with 16 samples.

Results

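The sphingosine-1-phosphate (S1P) genes described here are 4 receptors (S1pr1, S1pr2, S1pr3 and S1pr4), both sphingosine kinases (Sphk1 and Sphk2) and the S1P lyase (Sgpl1). They were taken by gene symbol and make up 7 of the 27928 genes with normalized counts. RNA was sequenced from B cells of the mouse spleen, namely from the follicular (FO) and the marginal zone (MZ) subset, sorted as CD21lo CD23hi and CD21hi CD23lo cells after negative selection of B cells. The cells came from wild type (WT) C57BL/6 mice and from mice whose floxed Gtf2i alleles are deleted by a B lineage Cre (cKO), also labelled C57BL/6, all aged 8 to 12 weeks. The Cre acts in the B lineage from early on, and no Cre is named for the WT mice, so the loss of Gtf2i and the presence of Cre cannot be told apart. Each of the 4 groups had 2 libraries, with 21546552 to 25083552 reads on genes per library. The labels do not say whether the 2 libraries of a group came from separate animals, and p-values then measure only the spread between these libraries. The 2 libraries of WT FO differed in the FO marker Ighd (39224 against 75630 normalized counts) and in Hbb-bs (6.99 against 79.0). The 2 libraries of cKO FO differed in Xist, which is transcribed from the inactive X chromosome (14748 against 67.4 normalized counts). Those of cKO MZ differed in the globin transcript Hbb-bs (7318 against 305) and those of WT MZ in Jchain (305 against 3692). In these groups the 2 libraries were not repeats of the same RNA.

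S1P is a lipid that is abundant in blood and lymph and scarce inside lymphoid tissue, and lymphocytes read this gradient with G protein-coupled receptors. Sphingosine kinases make S1P from sphingosine and the lyase degrades it irreversibly. In the spleen, S1P receptors on MZ B cells are known to oppose the pull of the follicular chemokine CXCL13 and so to keep these cells at the blood-exposed edge of the follicle, from which they shuttle into the follicle and back.

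The sort was visible in the RNA. Cr2, which encodes CD21, was 3.65-fold higher in MZ and Fcer2a, which encodes CD23, was 6.22-fold higher in FO B cells across both genotypes. Gtf2i ranged from 1992 to 2864 normalized counts over the WT and from 1523 to 1889 over the cKO libraries. Within each subset it was lower in cKO without overlap, as were 13.1 percent of all tested genes in FO and 18.7 percent in MZ. Reads on exons that Cre leaves in place are counted too. Ddx3y, a Y-linked gene, reached no more than 6.34 normalized counts in WT libraries but 2682 or more in each cKO library, so that genotype and sex-linked transcripts cannot be told apart. Xist ranged from 25930 to 47002 in WT libraries and from 21.7 to 89.7 in 3 of the cKO libraries, whereas cKO FO replicate 1 had 14748 beside 2682 of Ddx3y and so stood apart within its group. The library of cKO MZ replicate 1 stood apart by its summed erythroid markers (10277 normalized counts, against 24.9 to 758 in the other libraries) and granulocyte markers (1749, against 22.8 to 100.0).

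Of the S1P receptors, 3 differed between the subsets in both genotypes, S1pr3 and S1pr1 being higher in MZ and S1pr4 higher in FO B cells. Normalized counts are reads divided by the size factor of the library, and a gene was called when its Benjamini-Hochberg adjusted p was at most 0.05 by limma and its difference at least 1.5-fold. Sphk1 stayed under the minimum mean of 10 normalized counts, which left 6 of the 7 S1P genes among the 14761 genes tested. In WT, 2 of the 6 were called higher in MZ and 1 higher in FO B cells, where 7.41 and 4.62 percent of all tested genes were called. In cKO the counts were again 2 and 1, beside 8.18 and 5.54 percent of all tested genes. The median log2 difference, FO minus MZ, of the 6 genes was -0.30 in WT and 0.04 in cKO, beside 0.0048 and 0.0047 over all tested genes.

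**Figure D1:**
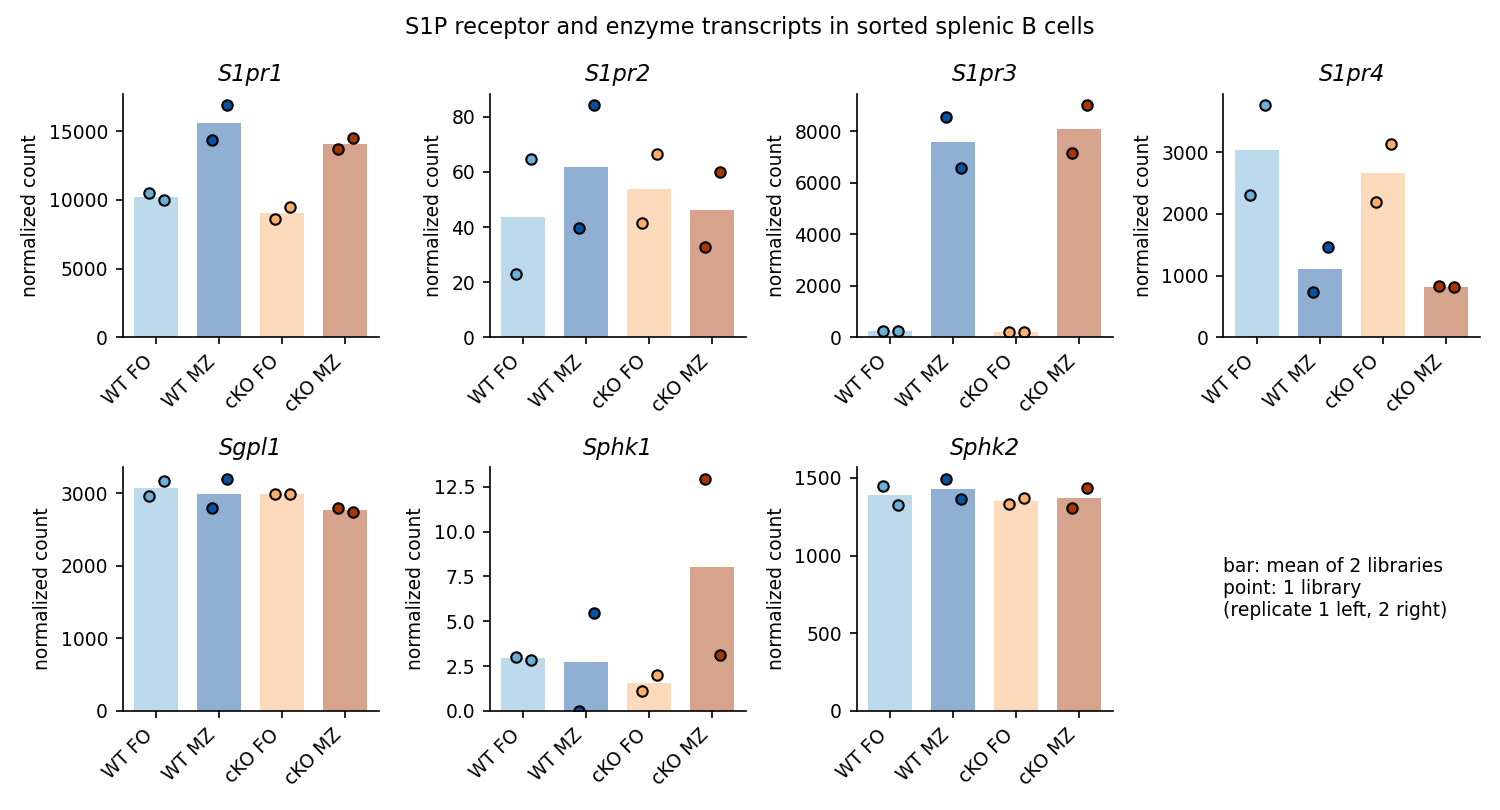
Normalized counts (linear axes from 0) of the 7 S1P genes in WT FO, WT MZ, cKO FO and cKO MZ B cells, with points for the 2 libraries of a group and bars for their mean. S1pr3 and S1pr1 are higher in all MZ libraries and S1pr4 in all FO libraries, whereas Sgpl1 and Sphk2 are level and Sphk1 does not exceed 13.0.

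S1pr3 had by far the largest difference of the S1P genes. It encodes a receptor that couples to Gi, Gq and G12/13 proteins. The gene (ENSMUSG00000067586.4) lies on the plus strand of chromosome 13 from 51408639 to 51422797 of GRCm38. In WT, the FO libraries had 237 and 247 normalized counts and the MZ libraries 8563 and 6579. In cKO it had 207 and 189 in FO and 7152 and 9018 in MZ B cells. All 4 MZ libraries were therefore far above all 4 FO libraries, and 18.6 percent of all tested genes were higher in MZ without overlap across the 8 libraries. The FO mean was 3.20% of the MZ mean in WT and 2.45% in cKO. The difference was 30.9-fold in WT (log2 -4.95, standard error 0.156, 95% interval 24.0 to 39.7-fold, limma adjusted p = 7.51e-06). In cKO it was 40.4-fold (log2 -5.34, 95% interval 31.4 to 51.9-fold, limma adjusted p = 5.73e-06). Among the 14761 tested genes, S1pr3 ranked 26th in WT and 17th in cKO by the size of the log2 difference towards MZ B cells.

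The windows before the start sites of S1pr3 and S1pr4 are printed because these receptors differed most, in opposite directions. They are the 250 bases before the start in RefSeq, read from build GRCm38.p6, at chr13:51408368-51408617 on the plus strand for S1pr3 and at chr10:81500138-81500387 on the minus strand for S1pr4. Capitals mark each match to the E-box CANNTG, a motif type with which the product of Gtf2i, TFII-I, is known to interact.
S1pr3: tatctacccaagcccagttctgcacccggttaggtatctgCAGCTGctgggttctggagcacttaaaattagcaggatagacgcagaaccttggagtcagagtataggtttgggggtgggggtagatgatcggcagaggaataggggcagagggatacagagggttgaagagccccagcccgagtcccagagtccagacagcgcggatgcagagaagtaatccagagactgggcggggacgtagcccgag
S1pr4: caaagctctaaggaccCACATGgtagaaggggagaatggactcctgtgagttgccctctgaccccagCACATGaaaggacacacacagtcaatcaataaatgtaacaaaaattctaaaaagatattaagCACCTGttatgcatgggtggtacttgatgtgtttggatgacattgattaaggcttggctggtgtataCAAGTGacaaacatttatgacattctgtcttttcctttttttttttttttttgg
The S1pr3 window held 1 E-box and the S1pr4 window 4. E-boxes were searched on both strands, where CANNTG reads the same, and 66.2% of 32851 RefSeq windows of this length held at least 1. Neither window held the variant CACGTG, which is contained in CANNTG and was found in 6.02% of windows. The letters CACCC, bound by Kruppel-like factors, were found 2 times before S1pr3 and once before S1pr4 over both strands, and 52.0% of windows held them. The GC box GGGCGG was present before S1pr3 and not before S1pr4, and 32.7% of windows held it. The S1pr3 window had a GC content of 56.4% and 9 CpG dinucleotides, whereas that of S1pr4 had 38.8% and 0, beside medians of 52.4% and 6 over all windows. Repeats masked in the genome covered 10.0% of the S1pr3 and 44.8% of the S1pr4 window. RefSeq windows were at hand for 6 of the 7 genes, all but S1pr1.

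The S1pr3 locus has an overlapping gene on the other strand, the long noncoding RNA Gm32834, which shares 45 exon bases with S1pr3. Whether strand was used in counting is not stated, and without strand reads in these bases cannot be assigned to either gene. Gm32834 had 1 and 1 reads (WT FO), 40 and 54 (WT MZ), 0 and 0 (cKO FO) and 49 and 39 (cKO MZ). Against a floor of 3 reads per FO library it was at least 14.95-fold higher in MZ in WT and at least 13.96-fold in cKO. Its reads were under 1% of those of S1pr3 in each MZ library.

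S1pr3 is also expressed by endothelial cells, so their markers were read in the same libraries. Of 8 endothelial markers 6 had values, with summed normalized counts of 6886 and 7960 (WT FO), 5629 and 6371 (WT MZ), 7084 and 7494 (cKO FO) and 5216 and 5889 (cKO MZ). These sums were nearly all Pecam1, which B cells express too. Kdr reached at most 6.34 normalized counts in any library, Tek at most 2.06 and Egfl7 at most 6.04. Vwf was between 15.7 and 20.1 in the FO and between 2.06 and 13.0 in the MZ libraries. Cdh5 was between 16.2 and 21.0 in the FO and between 55.9 and 110 in the MZ libraries, where S1pr3 was between 6579 and 9018. Cdh5 thus differed in the same direction as S1pr3, and the part of endothelial cells in the S1pr3 values was not tested. Summed macrophage markers (8 of 8 with values) were 347 and 516 (WT FO), 366 and 878 (WT MZ), 651 and 434 (cKO FO) and 941 and 775 (cKO MZ), and their part in the result was not tested. Without the library of cKO MZ replicate 1, the cKO difference of S1pr3 was -5.50 on the log2 scale, and without that of cKO FO replicate 1 it was -5.40.

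S1pr1, the Gi-coupled receptor on which lymphocyte egress depends, had the highest level of the family in both subsets and a modest difference between them. The gene (ENSMUSG00000045092.8) lies on the minus strand of chromosome 3 from 115710433 to 115715072. It had 10489 and 9973 normalized counts in the FO libraries of WT and 14316 and 16887 in the MZ libraries. In cKO it had 8617 and 9445 in FO and 13698 and 14474 in MZ B cells. Each MZ library was above each FO library, also between genotypes, as for 18.6 percent of all tested genes. The difference was 1.52-fold in WT (log2 -0.60, standard error 0.106, 95% interval 1.28 to 1.80-fold, limma adjusted p = 0.00801). In cKO it was 1.56-fold (log2 -0.64, 95% interval 1.32 to 1.85-fold, limma adjusted p = 0.00541). Both values were close to the cutoff of 1.5-fold. In WT the log2 difference was -0.57 without WT FO replicate 2 and -0.49 without WT MZ replicate 2, and in cKO it was -0.58 without cKO FO replicate 1, each under the cutoff. In a fit of only the 4 WT libraries the limma adjusted p was 0.0534. WT MZ replicate 2 also had the highest sum of plasma cell markers (4072 normalized counts, against 840 to 1999 in the other libraries). This sum was mostly Jchain (3692, against 305 in WT MZ replicate 1). Between the same libraries Prdm1 was lower (279 against 594) and Sdc1 higher (101 against 27.0). The part of these transcripts in the S1pr1 value was not tested. Across both genotypes the S1pr1 log2 difference was -0.62 (limma adjusted p = 0.000654) and fell under the cutoff without WT MZ replicate 2 (log2 -0.56). In bulk RNA of sorted cells, fewer cells with a transcript and less transcript per cell cannot be told apart, here or for the other genes.

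S1pr4, a receptor found mainly on hematopoietic cells, went the other way. The gene (ENSMUSG00000044199.6) lies on the minus strand of chromosome 10 from 81497747 to 81500132. It had 2311 and 3764 normalized counts in the FO libraries of WT and 743 and 1465 in the MZ libraries. In cKO it had 2197 and 3139 in FO and 831 and 815 in MZ B cells. No FO library was as low as any MZ library, and 17.9 percent of all tested genes were higher in FO without overlap across the 8 libraries. Except in cKO MZ, the 2 libraries of a group differed more than for S1pr1. The summed FO markers Fcer2a and Ighd were 64026 and 111789 (WT FO), 12811 and 29061 (WT MZ), 89444 and 112491 (cKO FO) and 24416 and 25216 (cKO MZ). Their part in the S1pr4 values was not tested. The S1pr4 difference was 2.83-fold in WT (log2 1.499, standard error 0.343, 95% interval 1.63 to 4.91-fold, limma adjusted p = 0.0233). In cKO it was 3.19-fold (log2 1.67, 95% interval 1.83 to 5.54-fold, limma adjusted p = 0.0135). With all 8 libraries used for the subset difference it was 3.002-fold (limma adjusted p = 0.00209), in a comparison where 7.45 percent of all tested genes were called higher in FO and 10.9 percent higher in MZ B cells. The call within a genotype depended on single libraries. In WT the limma adjusted p was 0.0961 without WT FO replicate 2 (log2 1.15) and 0.0806 without WT MZ replicate 1 (log2 1.009). In cKO it was 0.0874 without cKO FO replicate 2 (log2 1.42), 0.0827 without cKO MZ replicate 1 (log2 1.69) and 0.0750 without cKO MZ replicate 2 (log2 1.66).

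S1pr2, a G12/13-coupled receptor that restrains migration and is best known for confining germinal center B cells, was near the lower end of the tested genes. The gene (ENSMUSG00000043895.6) lies on the minus strand of chromosome 9 from 20962361 to 20976781. It had 23.0 and 64.7 normalized counts (WT FO), 39.5 and 84.2 (WT MZ), 41.4 and 66.4 (cKO FO) and 32.9 and 59.8 (cKO MZ). All groups overlapped. The log2 difference, FO minus MZ, was -0.57 in WT (95% interval -1.93 to 0.80, limma adjusted p = 0.580) and 0.24 in cKO (95% interval -1.13 to 1.60, limma adjusted p = 0.816). These intervals leave room for differences of over 2-fold in either direction, save towards FO in WT. S1pr5, the fifth receptor, best known from natural killer cells, had 0.963 to 30.4 normalized counts and was not called in either genotype.

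**Figure D2:**
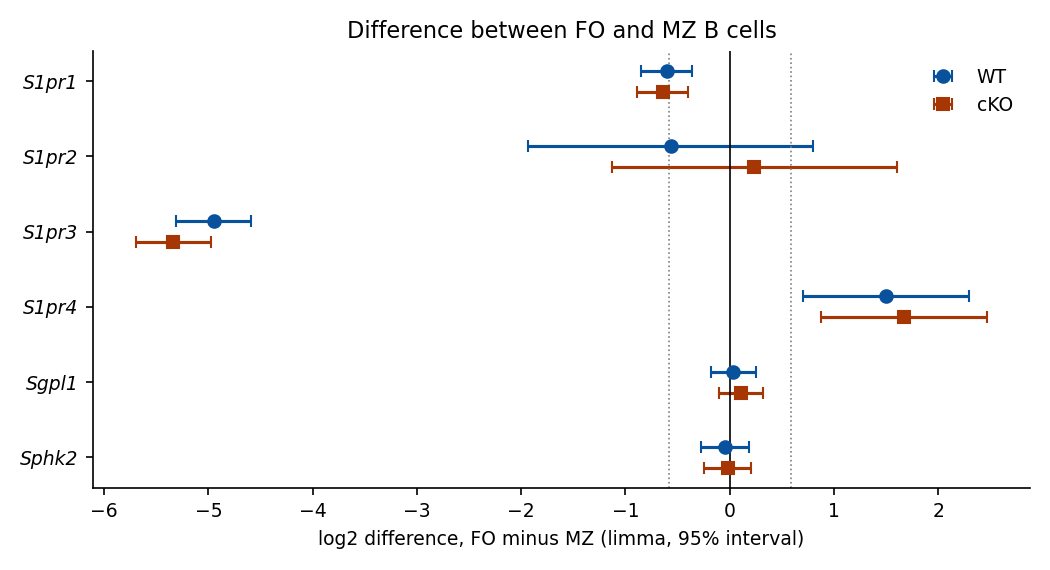
Log2 difference, FO minus MZ, of the 6 tested S1P genes in WT (circles) and cKO (squares), with 95% intervals from limma and dotted lines at 1.5-fold in each direction. S1pr3 lies at -4.95 and -5.34 and S1pr1 just beyond the 1.5-fold line on the MZ side, S1pr4 lies at 1.499 and 1.67 on the FO side, and the intervals of S1pr2, Sgpl1 and Sphk2 include 0.

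Of the enzymes among the S1P genes, Sgpl1 and Sphk2 showed no such difference, and Sphk1 was too low to test. Sgpl1, the lyase of the endoplasmic reticulum (ENSMUSG00000020097.14, minus strand of chromosome 10 from 61098642 to 61147703), had 2961 and 3173 normalized counts in the FO libraries of WT and 2789 and 3201 in the MZ libraries. In cKO it had 2991 and 2983 in FO and 2802 and 2746 in MZ B cells. The WT groups overlapped, and in cKO both FO libraries were slightly above both MZ libraries, as for 33.1 percent of all tested genes. The log2 difference was 0.04 in WT (95% interval -0.18 to 0.25) and 0.11 in cKO (95% interval -0.11 to 0.32), so that the intervals reach at most 1.25-fold in either genotype. The limma adjusted p was 0.833 in WT and 0.458 in cKO.

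Sphk2, the kinase found largely in the nucleus and at mitochondria and the endoplasmic reticulum (ENSMUSG00000057342.15, minus strand of chromosome 7 from 45709467 to 45718002), had 1450 and 1324 normalized counts in the FO libraries of WT and 1496 and 1362 in the MZ libraries. In cKO it had 1332 and 1370 in FO and 1308 and 1432 in MZ B cells. The groups overlapped throughout. The log2 difference was -0.04 in WT (95% interval -0.27 to 0.19, limma adjusted p = 0.819) and -0.02 in cKO (95% interval -0.25 to 0.21, limma adjusted p = 0.916). Sphk2 shares 539 exon bases with Dbp and 373 with Rpl18 on the other strand, and Rpl18 had 8960 to 12978 reads per library, so that reads in these bases are uncertain.

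Sphk1, the cytosolic kinase that is induced by many growth factors (ENSMUSG00000061878.15, plus strand of chromosome 11 from 116530925 to 116536674), was barely detected. It had 3 and 3 reads (WT FO), 0 and 6 (WT MZ), 1 and 2 (cKO FO) and 13 and 3 (cKO MZ). The highest value, 13 reads, came from cKO MZ replicate 1, the library with the high erythroid and granulocyte markers, whose part in this value was not tested. A count of 0 allows up to 3 reads, so no difference between groups was detectable at this depth and no fold is given.

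Levels between genes were compared as normalized counts per kilobase of exon. In WT FO B cells S1pr1 was first with 3359 ± 120 (SD, n = 2), followed by S1pr4 with 1273 ± 430, Sgpl1 with 499 ± 24.4, Sphk2 with 334 ± 21.4, S1pr3 with 54.2 ± 1.72, S1pr2 with 5.50 ± 3.70 and Sphk1 with 0.612 ± 0.0207. No neighbours in this order lay within each other's SD. In WT MZ B cells the order was S1pr1 with 5122 ± 597, S1pr3 with 1696 ± 314, Sgpl1 with 488 ± 47.3, S1pr4 with 463 ± 214, Sphk2 with 344 ± 22.7, S1pr2 with 7.76 ± 3.97 and Sphk1 with 0.569 ± 0.805. Here S1pr4 did not differ from Sgpl1 or Sphk2 beyond the spread. S1pr3 thus stood at the 35.1st percentile of the tested genes in WT FO and at the 96.3rd in WT MZ B cells, and S1pr4 at the 94.3rd and the 81.4th. In cKO the order was the same in FO B cells, and in MZ B cells S1pr4 (345 ± 4.93) and Sphk2 (329 ± 21.2) lay within 1 SD.

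The makeup of the receptor pool follows from these levels. The sum of the 4 receptors, in normalized counts per kilobase, was 4468 and 4915 (WT FO), 6935 and 7643 (WT MZ), 3801 and 4467 (cKO FO) and 6452 and 7121 (cKO MZ). S1pr1 held 66.6% to 77.1% of it in the FO and 66.7% to 72.5% in the MZ libraries, so that its share was much alike in both subsets. S1pr3 held 0.949% to 1.22% in the FO and 19.3% to 28.4% in the MZ libraries. S1pr4 held 21.7% to 32.1% in the FO and 4.49% to 8.04% in the MZ libraries. S1pr2 held at most 0.187% in any library. The second receptor of the pool was therefore S1pr4 in all 4 FO and S1pr3 in all 4 MZ libraries. Of the summed kinases per kilobase, Sphk2 held at least 99.1% in each library.

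**Figure D3:**
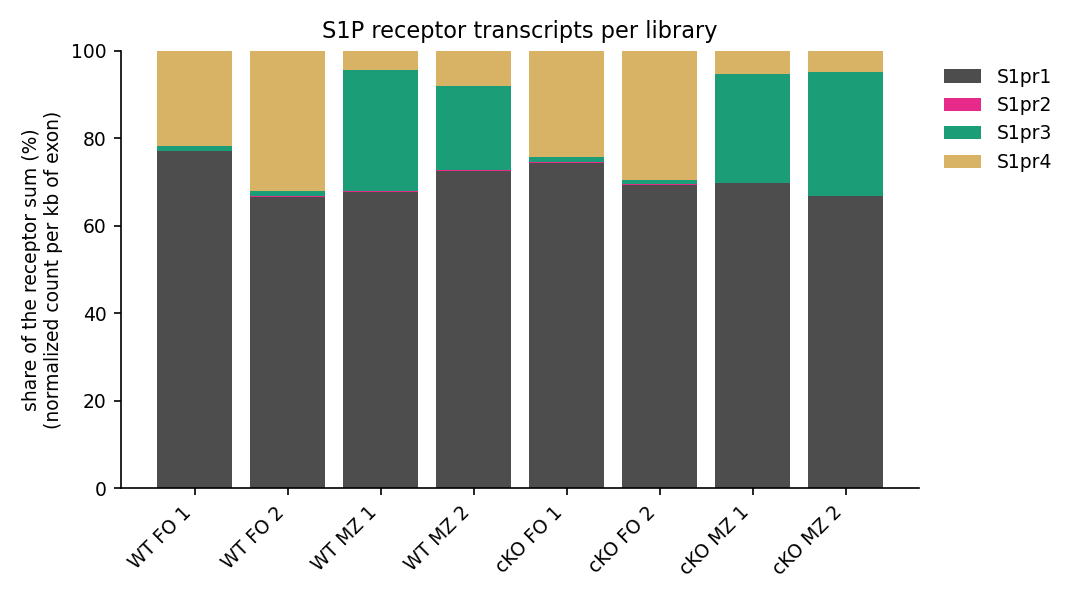
Share of S1pr1, S1pr2, S1pr3 and S1pr4 in the summed receptor level of each of the 8 libraries, in percent of normalized counts per kilobase of exon. S1pr1 takes 66.6% to 77.1% of each bar, S1pr4 is second in the FO and S1pr3 in the MZ libraries, and S1pr2 is too small to see in most bars.

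Whether the FO to MZ difference itself changed with genotype was tested as an interaction. None of the 6 genes was called, and neither was any of the 14761 tested genes (0.0 percent) by limma, DESeq2 or edgeR, where 94 had an unadjusted limma p under 0.05. For S1pr3 the difference was larger towards MZ in cKO by 0.39 on the log2 scale (standard error 0.221, 95% interval -0.13 to 0.90, limma adjusted p = 1.00). The interval for S1pr1 was -0.31 to 0.38 and that for S1pr4 -1.30 to 0.95. At 95% confidence a genotype effect on the S1pr1 difference was thus limited to 1.31-fold, and for S1pr4 and S1pr2 it was left wide.

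**Figure D4:**
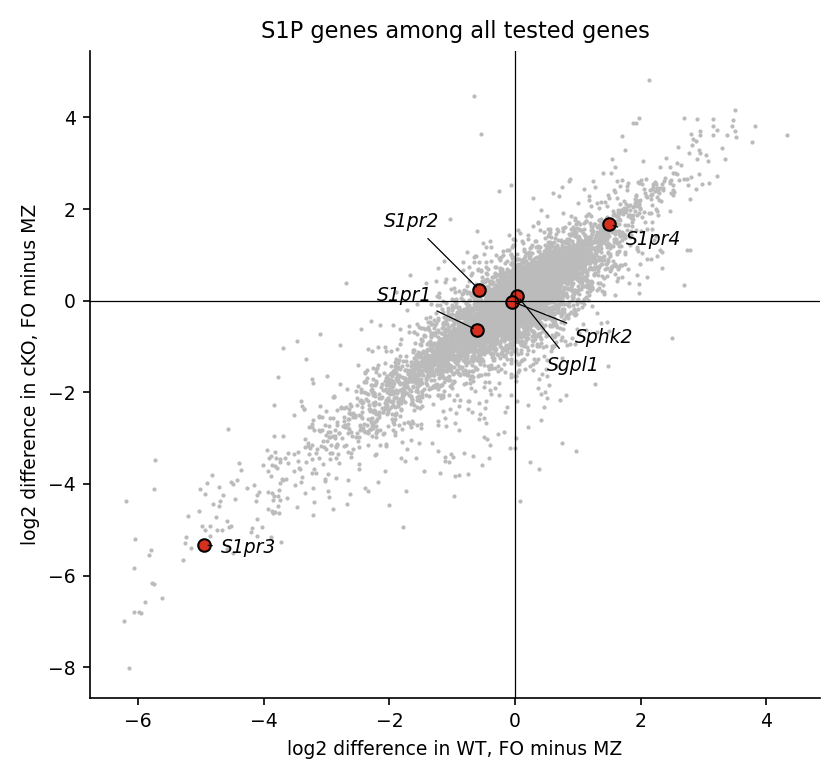
Log2 difference, FO minus MZ, in WT (horizontal axis) and cKO (vertical axis) for the 14761 tested genes (grey) and the 6 tested S1P genes (red). S1pr3, 26th in WT and 17th in cKO towards MZ, lies near the MZ end of the cloud, S1pr4 on its FO side and Sgpl1 and Sphk2 at its centre.

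Between genotypes within a subset no S1P gene was called, beside 0.0677 percent of all tested genes in FO and 0.0339 percent in MZ B cells. In FO B cells the log2 difference, cKO minus WT, was -0.29 for S1pr3 (95% interval -0.65 to 0.07) and -0.18 for S1pr1 (95% interval -0.43 to 0.06), and both cKO libraries lay below both WT libraries for these genes, as for 13.1 percent of all tested genes. The limma adjusted p was 1.00 for each. S1pr4 was at -0.17 in FO and -0.34 in MZ B cells, with overlapping groups in both. In MZ B cells S1pr3 was at 0.10 (95% interval -0.26 to 0.46). Sgpl1 and Sphk2 stayed between -0.11 and -0.04 in both subsets. The cKO libraries also differed from the WT libraries in sex-linked transcripts, whose part in these values was not tested.

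Beyond these genes, the S1P pathway was read from 3 lists. The first holds 10 genes, namely the receptor S1pr5 and genes of S1P transport and breakdown, of which 9 were tested. In WT 2 were called higher in FO (Sgpp2 and Spns2) and 1 in MZ B cells (Plpp3), and in cKO 3 (also Plpp2) and 2 (also Plpp1). Over all tested genes the shares called were 4.62 and 7.41 percent in WT and 5.54 and 8.18 percent in cKO, and they apply to the following 2 lists as well. The median of the 9 genes lay at 0.81 (log2) in WT and 0.17 in cKO, beside 0.0048 and 0.0047 over all tested genes. It includes S1pr5, which had few reads. Spns2, an exporter of S1P, had 2562 and 1794 normalized counts (WT FO), 893 and 695 (WT MZ), 2105 and 1628 (cKO FO) and 551 and 572 (cKO MZ). All FO libraries were above all MZ libraries, as for 17.9 percent of all tested genes. The difference was 2.99-fold over both genotypes (limma adjusted p = 0.000179). Sgpp2, an S1P phosphatase, was 3.35-fold higher in FO (90.6 to 162 against 25.8 to 49.8 normalized counts, limma adjusted p = 0.00141). Plpp3, a surface lipid phosphate phosphatase that can dephosphorylate S1P, went the other way. It had 260 and 310 normalized counts (WT FO), 710 and 824 (WT MZ), 259 and 264 (cKO FO) and 741 and 728 (cKO MZ), a 2.75-fold difference (limma adjusted p = 4.31e-05). Mfsd2b, the S1P exporter of red cells and platelets, had 36.2 to 85.6 normalized counts and was not called in either genotype.

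The second list holds 30 genes of sphingosine and ceramide supply, of which 24 were tested. In each genotype 2 were called higher in FO (Cerk and Smpd2) and 2 in MZ B cells (Asah2 and Acer2), shares near those over all tested genes, and their median lay at 0.04 (log2) in WT and 0.07 in cKO, beside 0.0048 and 0.0047. Cerk, the ceramide kinase, had 8928 to 10464 normalized counts in the FO and 3923 to 4928 in the MZ libraries (2.20-fold, limma adjusted p = 3.81e-05). Smpd2, a neutral sphingomyelinase, was 1.54-fold higher in FO (limma adjusted p = 0.000980). The ceramidases Asah2 and Acer2, which release sphingosine, were 1.67-fold (limma adjusted p = 0.00102) and 4.82-fold (limma adjusted p = 0.00133) higher in MZ B cells. Acer2 was low, with 5.71 to 13.4 normalized counts in the FO and 34.7 to 65.8 in the MZ libraries. The serine palmitoyltransferase subunits Sptlc1 and Sptlc2, which start the pathway, were not called.

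The third list holds 18 genes of receptor coupling and control, all tested. In WT 1 was called higher in FO (Foxo1) and 1 in MZ B cells (Arhgef12), and in cKO 4 (also Arrb1, Gna13 and Klf2) and again Arhgef12. The WT count is near the share over all tested genes. The median lay at 0.32 (log2) in WT and 0.34 in cKO, beside 0.0048 and 0.0047 over all tested genes. Foxo1, a transcription factor upstream of Klf2, was 1.59-fold higher in FO over both genotypes (limma adjusted p = 0.000271). Arhgef12, a guanine nucleotide exchange factor downstream of G12/13, had 364 to 674 normalized counts in the FO and 950 to 1147 in the MZ libraries (2.02-fold, limma adjusted p = 0.00102). Klf2, the transcription factor known to induce S1pr1 in lymphocytes, had 25736 and 16010 normalized counts (WT FO), 14383 and 5618 (WT MZ), 21384 and 24809 (cKO FO) and 7893 and 9795 (cKO MZ). Its FO libraries were all above its MZ libraries, as for 17.9 percent of all tested genes, whereas S1pr1 was higher in MZ B cells. Over both genotypes the Klf2 difference was 2.43-fold (limma adjusted p = 0.0115), and within a genotype the limma adjusted p was 0.0933 in WT and 0.0499 in cKO.

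Of the other coupling genes, Cd69, whose product takes S1PR1 off the surface, had 8232 to 17678 normalized counts with overlapping groups and was not called. Gnai2, the main Gi subunit of lymphocytes, was 1.33-fold higher in FO over both genotypes (limma adjusted p = 0.00273), under the cutoff. Gna13 was 1.46-fold higher in FO (limma adjusted p = 0.00438), also under it, and Arhgef1, its effector in B cells, was at 1.17-fold (limma adjusted p = 0.0526). Some calls rested on single libraries. Over both genotypes Klf2 lost its call without cKO MZ replicate 1 (log2 1.20), and Smpd2 without WT MZ replicate 2 (log2 0.58) or cKO FO replicate 2 (log2 0.58). Within cKO the calls of Asah2 (log2 -0.72 to -0.56), Arhgef12 (log2 -0.94 to -0.73) and Klf2 (log2 1.23 to 1.54) were lost without any 1 of the 4 cKO libraries. Within a genotype, leaving out 1 library also ended calls of Sgpp2 (WT log2 1.54 to 1.69 and cKO 1.43 to 1.51), Acer2 (WT -2.28 to -1.63 and cKO -2.31 to -2.09), Smpd2 (WT 0.55 and cKO 0.52 to 0.64), Foxo1 (WT 0.53 to 0.56) and Gna13 (cKO 0.46 to 0.65).

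**Figure D5:**
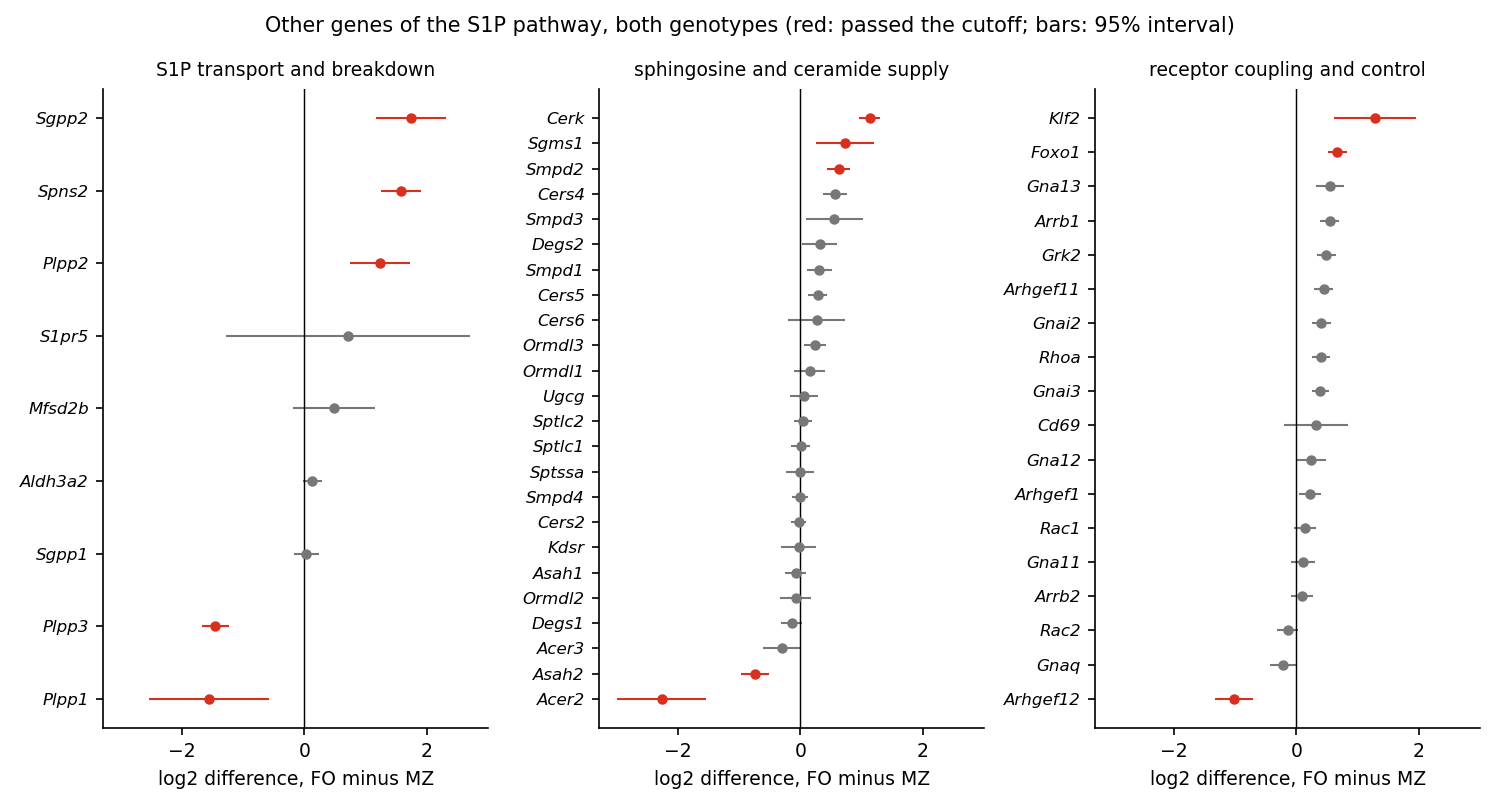
Log2 difference, FO minus MZ, across both genotypes for the tested genes of the 3 lists, 9, 24 and 18 genes, with 95% intervals from limma and in red those that passed the cutoff. Spns2 and Sgpp2 lie on the FO side and Plpp3 on the MZ side of the first list, and most genes of the second lie near 0.

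For each receptor that was called, the genes with the most similar profile over the 8 libraries were listed by Pearson r of log2 values among 10177 other genes with a mean of at least 100, as a description. The libraries share 2 subsets, so any gene that differs strongly between FO and MZ B cells will correlate. For S1pr3 these were Plxnd1 (r = 0.998), Dph5 (r = 0.998) and Rxfp1 (r = 0.998). The FO mean of Plxnd1 was 3.75% of its MZ mean in WT, beside the 3.20% of S1pr3, that of Rxfp1 was 2.44% and that of Dph5 was 15.8%. For S1pr1 they were E2f3 (r = 0.992), Acss1 (r = 0.991) and Ccs (r = 0.985), and for S1pr4 Msh5 (r = 0.996), Cmtm6 (r = 0.995) and Add3 (r = 0.993).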

How the data were processed

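RNA-seq of 8 libraries was analysed, and the 8 ATAC-seq samples were not analysed here. According to the study's methods, total RNA was depleted of ribosomal RNA, single-end reads of 50 bases were aligned with HISAT2 to mm10 and counted, with featureCounts and htseq-count both named, and DESeq2 was used. The authors deposited the signal as normalized counts, which are reads scaled by DESeq2 size factors. Whole reads were recovered for 100% of values (tolerance 0.02). Of the table, 27928 genes were kept and 256343 blank lines left out. Log2(normalized count + 1) of the 14761 genes with a mean of at least 10 was fitted with limma 3.58.1 (lmFit, eBayes with trend) in R 4.3.3, in a single fit of the 4 groups, and p-values were adjusted over all tested genes (Benjamini-Hochberg). No exact permutation test on 2 against 2 libraries can reach 0.05. The pseudocount makes differences of low genes smaller. Counting error is small at 21546552 to 25083552 reads per library, except for genes with few reads, among them Sphk1, S1pr2, S1pr5, Acer2, Plpp1, Mfsd2b and Gm32834, and precision otherwise rests on having 2 libraries per group. Limits from a count of 0 cover counting error only. Exon lengths and positions are from GENCODE M21 (GRCm38) and promoter windows from RefSeq (GRCm38.p6). Alternatives were each library left out in turn, a replicate block, a pseudocount of 0.5, no filter, quantile normalization, separate fits of the groups compared, counts tested with edgeR 4.0.16 or DESeq2 1.42.0 on recovered reads, and a cutoff of 2-fold or none. Named genes are the 7 S1P genes, up to 5 genes per list called in both genotypes in the same direction, S1pr5, Spns2, Mfsd2b, Klf2, Cd69, Gna13, Arhgef1 and Gnai2, and the 3 most alike genes per called receptor. Sptlc1, Sptlc2, Plpp1, Plpp2, Arrb1, Xist, Ddx3y, Dbp, Rpl18 and Gm32834 were named after their values were seen. The members and lists were chosen with earlier results of these data known.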

Additional observations from a re-analysis of the deposited data

How the results depend on the processing

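S1pr3 kept its direction and its call in all 52 alternatives of FO against MZ, with log2 differences from -5.14 to -4.76 in WT and from -5.50 to -5.17 in cKO. The changed fold cutoffs among them reuse the main fit. Without a fold cutoff no call can be lost, and at 2-fold S1pr1 has to lose its own. Leaving out a library of the other genotype does not change the difference within a genotype. S1pr1 kept its call in 44 of 52 and S1pr4 in 46 of 52, always in the same direction. In the fit of only the 4 WT libraries, the S1P genes called fell from 3 to 1 (limma adjusted p = 0.0534 for S1pr1 and 0.0952 for S1pr4) and all genes called from 1776 to 1014, with fewer samples to estimate the spread. With at least 2-fold required, the genes called were 1325 in cKO and 1647 across both genotypes, and with no fold cutoff 4926 across both. Of cKO against WT, 4 genes were called in FO in the fit of only the libraries compared, where the main fit called 10, and DESeq2 called 25 in FO and 50 in MZ, where limma called 5, none of them an S1P gene. With each library left out in turn, the S1P genes called ranged from 1 to 3 in WT and from 2 to 3 in cKO and across both, and all genes called from 1220 to 1628 in WT, from 1073 to 2119 in cKO (lowest without cKO MZ replicate 1) and from 2226 to 2804 across both. Of cKO against WT they ranged from 4 to 11 in FO and from 4 to 7 in MZ, and the interaction stayed at 0. Of 832 values of the listed genes under these alternatives, 58 fell from passing to not passing, in the same direction. Among the others, 6 with 1 library left out and 5 under the remaining alternatives were counted as stronger. A further 4 with 1 library left out were counted as moved.

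The replicate numbers are shared by the groups, and the labels do not say that they pair animals. Deviations of same-numbered libraries correlated at 0.769 between WT FO and WT MZ and at -0.122 between cKO FO and cKO MZ over 10178 genes. Between genotypes, where libraries cannot share an animal, cKO FO correlated at 0.485 with WT FO and 0.337 with WT MZ. There cKO MZ correlated at -0.318 with WT FO and -0.402 with WT MZ. With the replicate block, 1973 genes were called in WT, 2262 in cKO and 2861 across both, with 3 S1P genes in each. With the cKO MZ numbers exchanged, chosen after seeing the data, the block gave 2585 in cKO and 3046 across both, again with 3 S1P genes. At this depth, differences of Sphk1 could not be seen. With the spread between the 2 libraries of a group, those of S1pr2 could be seen only if well over 2-fold.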

Other observations

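S1pr2 was higher in the library of replicate 2 than in that of replicate 1 in each of the 4 groups (64.7 against 23.0, 84.2 against 39.5, 66.4 against 41.4 and 59.8 against 32.9 normalized counts), a spread within groups that exceeded the difference between FO and MZ B cells. The labels do not say what the replicate numbers stand for. Dbp, a clock-controlled transcription factor that overlaps Sphk2 on the other strand, had 178 and 227 normalized counts (WT FO), 265 and 302 (WT MZ), 161 and 188 (cKO FO) and 306 and 351 (cKO MZ), whereas Sphk2 was level across the groups.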
